A study of Rattus norvegicus with 70 samples.

Results

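The levels of 10 transcripts of fat and striated muscle were followed through 5 organs of bisphenol-exposed rats: the fat genes Fabp4, Adipoq, Cfd, Cidec, Plin1 and Ucp1 and the muscle genes Acta1, Ckm, Myh6 and Myh7. They are the 10 rows with these symbols among the 17048 rows of the count table. The members were chosen by their levels in these same libraries, among them the fat and muscle signal in thyroids and the myosin signal in ovaries. Levels are therefore given as a description with no test, and the fitted fold changes are no independent support for that choice. The libraries counted the 3′ ends of messenger RNA in thyroid, ovary, testis, kidney and liver of outbred Sprague-Dawley laboratory rats on postnatal day 63. The BPA rats were born to dams given 500 mg/kg/day of bisphenol A by mouth between gestational day 6 and lactation day 6. The Mix rats were born to dams given 160 mg/kg/day of bisphenol A, 160 mg/kg/day of bisphenol F and 180 mg/kg/day of bisphenol S over the same days. Pups of both treated groups received 250 mg/kg/day of the dam's substance from postnatal day 7 to day 63, and vehicle rats received neither. Litters had been culled on postnatal day 4. Each organ, sex and treatment had 3 libraries, except female kidney with 2 BPA, 3 Mix and 2 vehicle libraries. Label codes recur between organs of a sex and treatment, so libraries of different organs came from the same rats. The labels do not tie rats to litters, so p-values measure the spread between these rats only.

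Adipocytes store triglyceride in droplets whose coat includes perilipin 1 (Plin1) and CIDEC, carry fatty acids on FABP4, and secrete adiponectin (Adipoq) and the complement protease adipsin (Cfd). Brown adipocytes add uncoupling protein 1 (Ucp1), which lets mitochondria release energy as heat. Striated muscle contracts through actin and myosin filaments: Acta1 encodes the actin of skeletal muscle, Ckm the muscle creatine kinase that regenerates ATP, and Myh6 and Myh7 the alpha and beta myosin heavy chains of heart, the beta chain being also that of slow skeletal fibres. The thyroid lies against the trachea under the strap muscles of the neck, and ovary, kidney and testis have fat beside them.

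Libraries held 4803807 to 10929957 counts, and levels are counts scaled to a library total of 1000000 (CPM). A count of 0 allows up to 3 counts, which is 0.274 to 0.625 CPM depending on the library. Thyroids carried their own marker thyroglobulin (Tg) at 25932 to 104841 CPM, together with the C cell gene Calca at 5919 to 24949.9 CPM and the parathyroid hormone gene Pth at 12671 to 82561 CPM. Ovaries carried the steroidogenic gene Star at 714 to 2317 CPM. Ribosomal RNA rows took 0.660% to 23.7% of counts in female thyroids, 1.07% to 5.65% in male thyroids and 12.4% to 29.4% in ovaries.

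Each transcript had its own order of organs. Fabp4 had its highest levels in the thyroid, with a median of 533 CPM over 18 libraries and a range of 185 to 4344 CPM. Ovary and kidney followed, with medians of 43.8 and 40.4 CPM and ranges that overlapped, and liver and testis lay lowest with medians of 2.70 and 1.02 CPM. The range of the ovaries, 9.28 to 111.6 CPM, did not reach that of the thyroids, whereas the highest kidney library had 517 CPM. Ucp1 was present throughout the thyroid only, with a median of 31.7 CPM and a range of 0.239 to 137 CPM. Ucp1 stood at no more than 0.538 CPM in ovaries, 0.126 CPM in livers and 0.109 CPM in testes, and in kidneys it was at 3.01 CPM or less in all libraries but 1.

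The other fat transcripts did not follow that order. Adipoq had a median of 124 CPM in thyroids and of 73.6 CPM in testes, where it ran from 52.1 to 105 CPM, so these organs overlapped. In the same testes Fabp4 did not exceed 4.76 CPM, Plin1 0.844 CPM and the leptin gene Lep 0.442 CPM. Kidneys and ovaries had median Adipoq levels of 11.5 and 10.6 CPM, and 17 of 18 livers had no Adipoq count. In RefSeq's rat annotation GRCr8 the gene next to Adipoq is Rfc4, a replication factor subunit, which had 115 to 225 CPM in testes, and how the counts of neighbouring genes were separated is not stated. Cidec had similar medians in liver, thyroid and kidney, 52.5, 44.3 and 41.0 CPM, with overlapping ranges, and stayed at 4.97 CPM or less in testis and ovary. Cfd had a median of 264 CPM in thyroids, 43.8 CPM in ovaries, 29.9 CPM in livers, 15.3 CPM in testes and 2.61 CPM in kidneys, and its ranges in ovary and liver overlapped. Plin1 was low everywhere, from 1.19 to 12.97 CPM in thyroids and at or below 3.36 CPM in ovaries and 0.844 CPM in testes.

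The muscle transcripts split between organs. Acta1 had a median of 58.2 CPM in thyroids and did not exceed 7.36 CPM elsewhere. Ckm had a median of 20.4 CPM in thyroids, did not exceed 4.35 CPM elsewhere, and was at 0 in 13 of 16 kidneys and 15 of 18 livers. Myh6 had its highest median in ovaries, 13.5 CPM, against 1.39 CPM in testes and 0 in kidneys and livers, and 9 of 18 thyroids had no Myh6 count. Myh7 had medians of 2.47 CPM in ovaries and 1.78 CPM in testes, which overlapped, and reached its highest level, 75.6 CPM, in 1 thyroid.

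**Figure D1:**
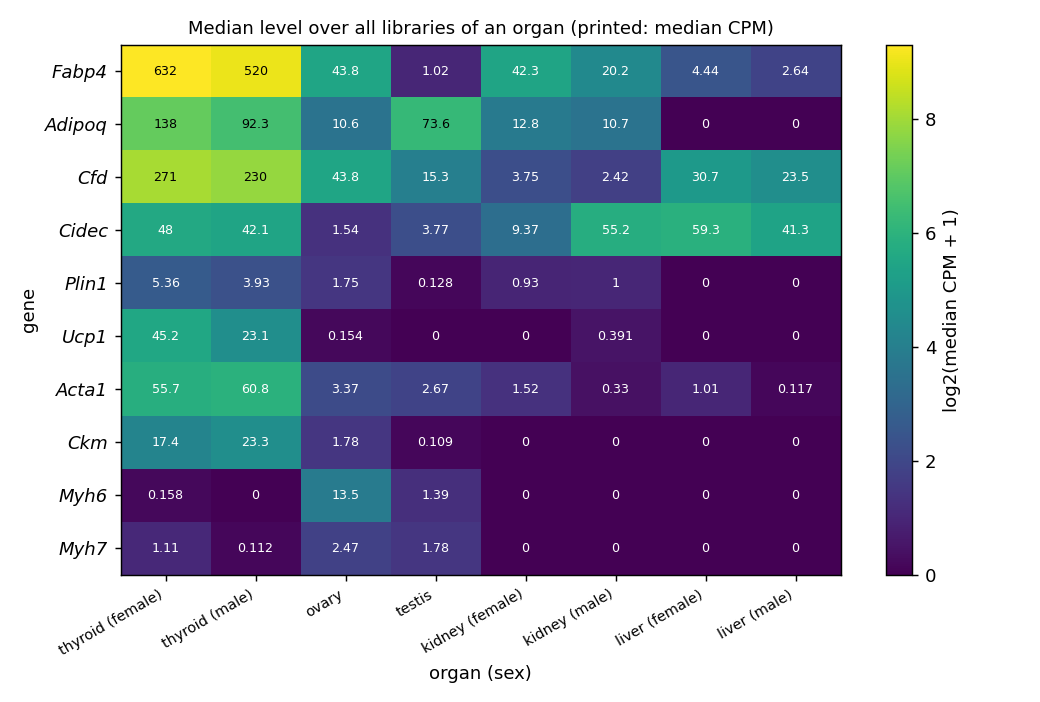
Median level of each transcript in each organ and sex, over all libraries of that organ and sex. Colour gives log2(median CPM + 1) and the printed figure is the median CPM. Thyroid columns are the brightest for Fabp4, Adipoq, Cfd, Plin1, Ucp1, Acta1 and Ckm, Adipoq is also bright in testis, Cidec is as bright in liver and male kidney as in thyroid, and Myh6 has its highest median, 13.5 CPM, in ovary.

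In female thyroids the fat transcripts had their highest libraries among vehicle rats. Fabp4 was 278, 919 and 632 CPM in BPA, 355, 958 and 185 CPM in Mix, and 493, 1574 and 4344 CPM in vehicle thyroids. The vehicle values spanned the widest range, and the lowest of them lay inside the ranges of both treated groups. In bulk tissue, fewer cells of a type and less RNA per cell cannot be told apart. Adipoq was 55.6, 185 and 138 CPM in BPA, 47.8, 172 and 67.2 CPM in Mix, and 112.2, 275 and 575 CPM in vehicle thyroids, and vehicle replicates 2 and 3 exceeded all treated values. Cfd was 265, 475 and 253 CPM in BPA, 169, 437 and 271 CPM in Mix, and 264, 581 and 1208 CPM in vehicle thyroids. Vehicle replicates 2 and 3 again exceeded all treated values.

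Cidec was the fat transcript whose groups separated in females at plain CPM. It was 41.5, 48.0 and 37.1 CPM in BPA, 33.8, 53.8 and 41.1 CPM in Mix, and 58.8, 129.8 and 172 CPM in vehicle thyroids. Every treated value lay below every vehicle value in CPM of the full library total. This separation depended on the ribosomal rows in that total. They took 16.5% of counts in Mix replicate 2 and 3.26% in vehicle replicate 1. Without these rows in the total, Cidec in Mix replicate 2 exceeded vehicle replicate 1, and the groups overlapped. The fitted log2 difference for Cidec was -1.65 ± 0.40 (SE) for BPA against vehicle, with an edgeR adjusted p of 0.328, and -1.49 ± 0.40 for Mix against vehicle, with an edgeR adjusted p of 0.0820. DESeq2 called Cidec in both comparisons, with adjusted p of 0.0131 for BPA and 0.0101 for Mix. Ucp1 was 23.7, 89.3 and 32.0 CPM in BPA, 13.3, 81.1 and 45.2 CPM in Mix, and 30.4, 137 and 111.9 CPM in vehicle thyroids, with overlap throughout. Plin1 had 4.96, 5.32 and 5.36 CPM in BPA, 3.76, 12.97 and 11.2 CPM in Mix, and 7.40, 4.53 and 9.55 CPM in vehicle thyroids, and its highest libraries were Mix ones.

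EdgeR called no member in female thyroids. Of the 9 members tested for BPA against vehicle 0 passed at an edgeR adjusted p below 0.05, where 0.0% of all 11127 rows passed, while DESeq2 called 1, against 1.89% of all rows, and 4 had an unadjusted p below 0.05, against 13.3% of all rows. For Mix against vehicle edgeR called 0 of 9, against 0.00899% of all rows, DESeq2 called 2 (Cidec and Adipoq), against 12.2% of all rows, and 3 had an unadjusted p below 0.05, against 23% of all rows. The median log2 difference of the 6 fat members was -1.36 in both comparisons, and the median of all rows was 0.03 for BPA and -0.03 for Mix; both comparisons used the same vehicle thyroids. All 6 fat members had a negative fitted difference for BPA and 5 of 6 for Mix, Plin1 being the exception. Without vehicle replicate 1, the lowest vehicle library in 5 of the 6 fat transcripts, edgeR called 1 member for BPA and 4 for Mix. For Mix against BPA edgeR and DESeq2 called 0 of 9, where edgeR passed 0.0% of all rows and DESeq2 called 40 rows. There 1 member had an unadjusted p below 0.05, against 5.84% of all rows. That member, Myh7, had no DESeq2 adjusted p in any comparison of female thyroids.

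Markers of other cells also moved between these female libraries. The summed level of 5 hepatocyte markers was 10.9, 32.5 and 123 CPM in BPA, 15.5, 48.7 and 46.3 CPM in Mix, and 3723, 1264 and 56.1 CPM in vehicle thyroids, led by albumin (Alb), with Fga at 0 in 6 of these 9 libraries. Vehicle replicate 1, the highest of these, was the lowest vehicle library for Fabp4, and vehicle replicate 3, the lowest, was the highest for Fabp4. Parathyroid markers, 3 genes summed, stood at 19956 to 37021 CPM in BPA, 12867.5 to 37302 CPM in Mix, and 39113 to 41351 CPM in vehicle thyroids. Vehicle and treated libraries did not overlap in CPM of the full total. Without ribosomal rows in the total, Mix replicate 2 exceeded every vehicle library in these markers. The summed level of the 9 follicular cell markers was 52726 to 63269 CPM in BPA, 54182 to 78889 CPM in Mix, and 28119 to 55973 CPM in vehicle thyroids, whose highest library overlapped the treated ones. The ribosomal share was 1.93% to 7.41% in BPA, 11.7% to 23.7% in Mix, and 0.660% to 3.26% in vehicle thyroids. The part of these differences in the fat transcripts was not tested, beyond a fit with the ribosomal share as a covariate, in which edgeR called 0 members in female thyroids.

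In male thyroids the Mix group was the low one. Ucp1 was 20.7, 31.4 and 23.1 CPM in BPA, 0.239, 9.96 and 3.84 CPM in Mix, and 45.1, 37.5 and 37.0 CPM in vehicle thyroids. The 3 groups did not overlap, Mix being lowest and vehicle highest. The fitted log2 difference of Ucp1 was -3.13 ± 0.86 for Mix against vehicle, with adjusted p of 0.922 in edgeR and 0.00535 in DESeq2, and -2.58 ± 0.85 for Mix against BPA, with adjusted p of 0.304 in edgeR and 0.0355 in DESeq2. Cidec was 46.9, 50.9 and 34.6 CPM in BPA, 21.3, 32.3 and 19.6 CPM in Mix, and 42.1, 63.8 and 46.5 CPM in vehicle thyroids, so every Mix value lay below every other. Plin1 was 4.82, 2.12 and 3.93 CPM in BPA, 1.19, 2.53 and 2.38 CPM in Mix, and 6.27, 6.90 and 5.22 CPM in vehicle thyroids, where vehicle lay above both treated groups and BPA and Mix overlapped.

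Adipoq in male thyroids was 136, 152 and 75.7 CPM in BPA, 42.3, 80.9 and 42.2 CPM in Mix, and 92.3, 151 and 169 CPM in vehicle thyroids, with Mix below vehicle throughout. Fabp4 was 520.3, 806 and 384 CPM in BPA, 281, 547 and 296 CPM in Mix, and 430.2, 663 and 559 CPM in vehicle thyroids, and Cfd was 236, 566 and 230.1 CPM in BPA, 159.9, 270.1 and 154 CPM in Mix, and 223, 229 and 402 CPM in vehicle thyroids. Both of these overlapped between Mix and vehicle. For Mix against vehicle edgeR called 0 of 8 members, against 0.0% of all 11119 rows, DESeq2 called 1, against 0.306% of all rows, and 4 members (Ucp1, Cidec, Adipoq and Plin1) had an unadjusted p below 0.05, against 4.96% of all rows. All 6 fat members had a negative fitted difference, with a median of -1.21, and the median of all rows was 0.00. For Mix against BPA edgeR called 0 of 8, against 0.0% of all rows, DESeq2 called 1, against 0.791% of all rows, and 4 had an unadjusted p below 0.05, against 13.8% of all rows. For BPA against vehicle edgeR and DESeq2 called 0 of 8 and none of the 8 had an unadjusted p below 0.05, against 8.23% of all rows; edgeR passed 0.0% of all rows.

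Other genes of fat were counted from lists made for this description. Of 24 further adipocyte genes 20 were tested in male thyroids, and 18 of these had a negative fitted difference for Mix against vehicle, with a median log2 difference of -0.66; edgeR called 0, DESeq2 called 1, and 7 had an unadjusted p below 0.05. Of 18 further brown fat genes 10 were tested, 9 of them with a negative difference and a median of -0.90. EdgeR and DESeq2 called 0, and 2 had an unadjusted p below 0.05. Of all rows in this male comparison 50.4% were negative, DESeq2 called 0.306%, and 4.96% had an unadjusted p below 0.05. In females 15 of the 20 adipocyte genes had a negative difference for BPA against vehicle, with a median of -0.35. For Mix 14 of 20 did, with a median of -0.74. EdgeR called 0 in both, and DESeq2 called 3 for BPA and 4 for Mix. With an unadjusted p below 0.05 there were 5 for BPA and 8 for Mix. Of all rows 48.4% were negative for BPA and 51.3% for Mix, and DESeq2 called 1.89% and 12.2%. Unadjusted p was below 0.05 in 13.3% and 23% of all rows. Fat genes such as Adipoq and Fabp4 (r = 0.927) varied together across thyroids, so the genes of a list are not separate observations. The summed level of the adipocyte list was 2522 to 3745 CPM in BPA, 1715 to 2234 CPM in Mix, and 3077 to 3571 CPM in vehicle thyroids of males. Follicular marker sums in these males were 39544 to 71940.2 CPM in BPA, 66778 to 88898 CPM in Mix, and 74989 to 108948 CPM in vehicle thyroids. C cell markers, 4 genes summed, stood at 14045 to 16783 CPM in BPA, 17529 to 20592.5 CPM in Mix, and 9608 to 11593 CPM in vehicle thyroids of males, so these groups did not overlap. The part of either cell type in the fat values was not tested. No member passed the test of a treatment difference between the sexes. EdgeR and DESeq2 called 0 of 9 in the interaction for BPA and 0 of 9 for Mix, Myh7 having no DESeq2 adjusted p. Of all 12003 rows edgeR passed 0.0% in each, and DESeq2 called 227 rows for BPA and 56 for Mix. An unadjusted p below 0.05 was found for 3 members with BPA and 1 with Mix, against 17% and 8.6% of all rows.

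**Figure D2:**
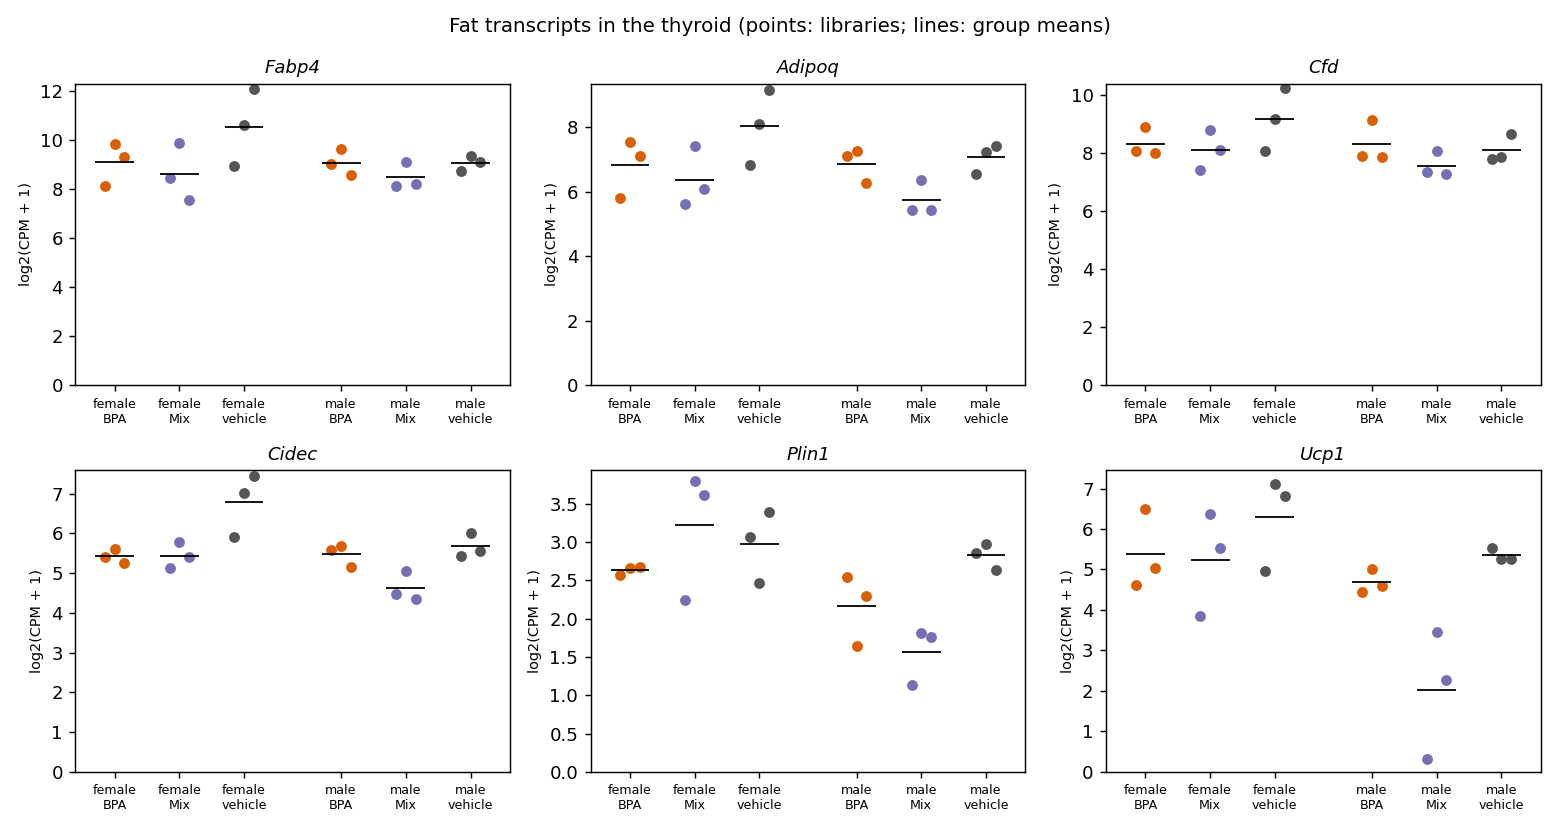
Fat transcripts in each thyroid library, as log2(CPM + 1), by sex and treatment; points are libraries and lines are group means (3 libraries each). Female vehicle libraries reach the highest values for Fabp4, Adipoq, Cfd, Cidec and Ucp1, and male Mix libraries of Ucp1, at 0.239, 9.96 and 3.84 CPM, lie below all other thyroids.

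Some of the fat transcripts of a thyroid library stayed closer in proportion than others. Fabp4 was 2.75 to 7.55 times Adipoq in all 18 libraries while the summed level of the 6 transcripts ranged 12.5-fold, from 505 to 6309 CPM. Plin1 ran from 3.49 to 27.3 per 100 Cidec counts in female thyroids, and its r with Fabp4 over the 18 thyroids was 0.294, against 0.927 for Adipoq with Fabp4. Ucp1 varied more against Adipoq than Fabp4 did. In females it stood at 19.4 to 67.3 per 100 Adipoq counts. In males it was 15.2, 20.6 and 30.5 per 100 in BPA, 0.565, 12.3 and 9.09 per 100 in Mix, and 48.9, 24.9 and 21.9 per 100 in vehicle thyroids, so that every male Mix library lay below every other thyroid.

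The rows whose levels were most like a member's were found by Pearson's r of log2(CPM + 1) over the 18 thyroid libraries, which share their depth and tissue mix, and r is given as a description. Adipoq was most like Cdo1 (r = 0.929), the cysteine dioxygenase gene, Fabp4 (0.927), Tusc5 (0.909), Vim (0.904) and Cidec (0.891). Cfd was most like Cdo1 (0.930), Adipoq and Fmo1, and Cidec most like Retn (0.915), the resistin gene of adipocytes, and Cdo1. Fabp4 was most like Vim (0.931), the vimentin gene of mesenchymal cells. Rows like Ucp1 included Cox8b (0.900), a cytochrome oxidase subunit of brown fat and muscle, Rxrg, Prkar2b and the droplet coat gene Plin5. Fabp4 and Acta1 had an r of 0.082.

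Muscle transcripts differed strongly between thyroid libraries of 1 group. Windows at the annotated gene starts of the muscle members are shown because Acta1 and Ckm had like levels across thyroids, and Myh6 and Myh7 across ovaries. They are from RefSeq with the GRCr8 build, 250 bases before to 50 after the gene start, 5′ to 3′, with the E-box letters CANNTG and the CArG box in capitals; 9 of the 10 members had an entry, Fabp4 being the one without.
Acta1 (chr19:68784145-68784444, minus strand): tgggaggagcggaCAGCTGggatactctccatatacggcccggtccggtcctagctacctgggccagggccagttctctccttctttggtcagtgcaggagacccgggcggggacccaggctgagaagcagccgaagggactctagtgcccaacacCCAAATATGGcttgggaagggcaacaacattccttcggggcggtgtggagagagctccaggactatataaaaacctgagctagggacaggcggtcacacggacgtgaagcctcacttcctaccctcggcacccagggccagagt
Ckm (chr1:88189211-88189510, plus strand): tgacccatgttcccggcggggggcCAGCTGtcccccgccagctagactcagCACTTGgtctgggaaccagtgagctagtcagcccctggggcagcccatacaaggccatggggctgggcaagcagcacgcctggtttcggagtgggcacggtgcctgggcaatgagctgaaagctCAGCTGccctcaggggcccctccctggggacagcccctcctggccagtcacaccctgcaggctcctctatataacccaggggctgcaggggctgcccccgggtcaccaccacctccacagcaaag
Myh6 (chr15:32411648-32411947, minus strand): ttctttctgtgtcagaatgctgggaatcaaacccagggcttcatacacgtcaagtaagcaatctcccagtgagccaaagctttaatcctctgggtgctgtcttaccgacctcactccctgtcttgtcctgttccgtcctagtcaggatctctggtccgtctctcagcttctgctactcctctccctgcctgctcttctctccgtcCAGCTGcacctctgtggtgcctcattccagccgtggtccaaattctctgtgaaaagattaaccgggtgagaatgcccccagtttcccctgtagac
Myh7 (chr15:32438145-32438444, minus strand): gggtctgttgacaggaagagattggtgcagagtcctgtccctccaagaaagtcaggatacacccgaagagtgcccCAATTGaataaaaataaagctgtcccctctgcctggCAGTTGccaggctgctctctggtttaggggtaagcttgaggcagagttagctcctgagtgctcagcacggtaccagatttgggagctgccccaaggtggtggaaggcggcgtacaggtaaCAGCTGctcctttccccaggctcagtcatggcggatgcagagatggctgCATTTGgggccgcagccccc
The E-box, which muscle regulatory factors bind and which reads the same on both strands, was found in all 4, once in Acta1 and Myh6, 3 times in Ckm and 4 times in Myh7. It stands in 72.1% of all 33469 promoters in the table. The CArG box, the site of serum response factor, was searched on both strands and found once, in Acta1, and 1.64% of all promoters hold it. The MEF2 site, searched in the same way, was found in none of the 4 windows and in 0.565% of all promoters. No match overlapped another, and matches are letters only, not shown binding. The gene starts were not checked against transcripts of these tissues, so a window may lie outside a promoter. In the Myh7 window an open reading frame begins at atggcggatgcagag shortly after the gene start, and the CATTTG match lies inside it. The bases just before that start, ctcctttccccag, read like the end of an intron. The Myh7 matches are therefore not shown to be promoter sites.

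In female thyroids Acta1 was 33.0, 66.2 and 3.99 CPM in BPA, 2.35, 14.1 and 1410.1 CPM in Mix, and 409, 1883 and 55.7 CPM in vehicle thyroids. A single Mix library stood beside the highest vehicle ones, and the other Mix and all BPA libraries lay at 66.2 CPM or less. Ckm moved with it, at 17.4, 28.2 and 2.87 CPM in BPA, 0, 15.2 and 535 CPM in Mix, and 161, 580.0 and 5.91 CPM in vehicle thyroids. Myh7 was 0, 0 and 0.125 CPM in BPA, 0.313, 1.11 and 75.6 CPM in Mix, and 4.17, 24.3 and 4.27 CPM in vehicle thyroids, and at 1 count or none the BPA libraries could not be told from the lowest Mix library by counting error. Myh6 was at 0 in the 3 BPA libraries, 0.313, 0.158 and 19.8 CPM in Mix, and 0.538, 4.02 and 0 CPM in vehicle thyroids, with both of the higher values in libraries that were high in Acta1. Myh6 did not pass the low-count filter in either sex, nor did Myh7 in males, where neither exceeded 2.51 CPM.

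The fitted differences of these transcripts had wide errors. For BPA against vehicle in females the log2 difference of Acta1 was -4.60 ± 2.08 with an edgeR adjusted p of 0.375, and that of Ckm was -4.03 ± 2.05 with an edgeR adjusted p of 0.401. For Mix against vehicle they were -0.53 ± 1.79 and -0.25 ± 1.80, with edgeR adjusted p of 0.889 and 0.953. In male thyroids Acta1 was 26.8, 219 and 60.8 CPM in BPA, 5.38, 3.27 and 417 CPM in Mix, and 5.73, 81.7 and 109 CPM in vehicle thyroids, and Ckm was 11.7, 64.5 and 23.3 CPM in BPA, 0, 0 and 154 CPM in Mix, and 0, 46.8 and 30.2 CPM in vehicle thyroids. In both sexes the third Mix library was the highest or near the highest and the other Mix libraries were the lowest or near the lowest. Replicate numbers mark no shared origin across sexes or treatments. Within a sex and treatment label codes recur between organs, and the third female Mix thyroid shares its code with the third Mix ovary.

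**Figure D3:**
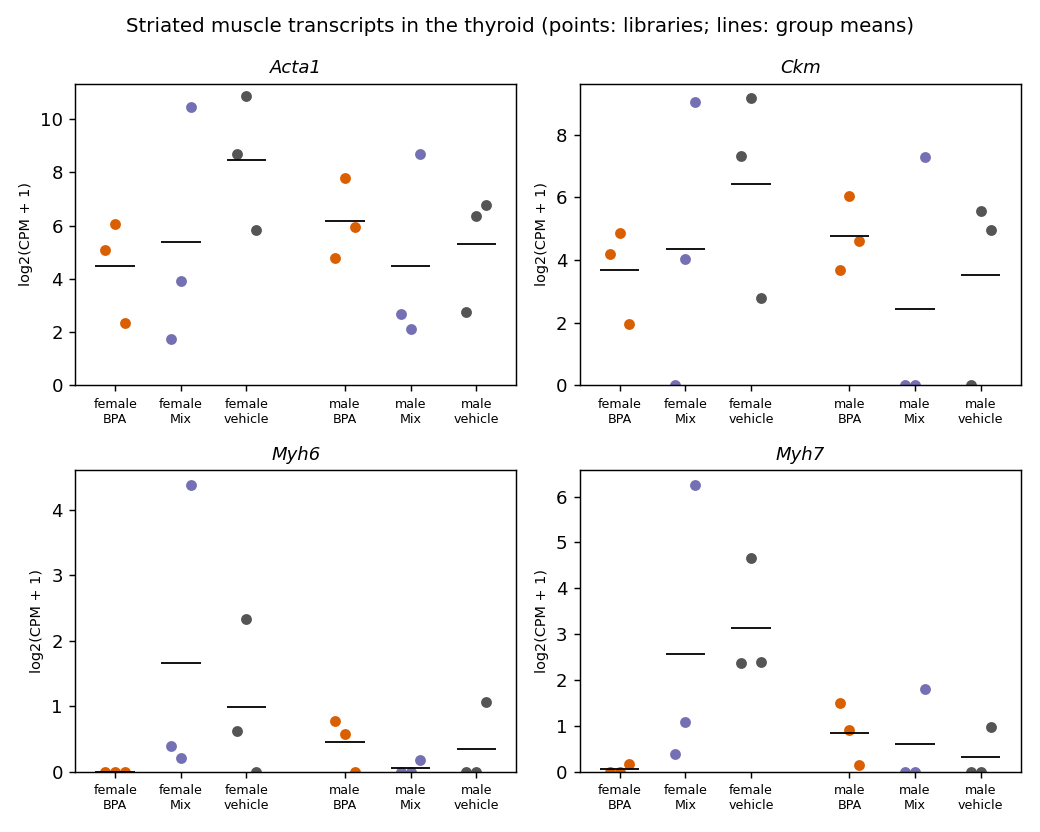
Striated muscle transcripts in each thyroid library, as log2(CPM + 1), by sex and treatment; points are libraries and lines are group means (3 libraries each). Acta1 runs from 2.35 to 1883 CPM, libraries of 1 group lie as far apart as libraries of different groups, and Ckm follows Acta1.

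Other muscle genes in thyroids were described in the same way. Acta1 was most like the fast fibre genes Mylpf (r = 0.968), a myosin light chain, Tnni2 (0.967) and Tnnt3 (0.956), of the troponin complex, and like Ckm (0.964) and Myl1 (0.95). Ckm was most like Myl1 (0.990). Myh7 was most like Trim72 (0.942), a membrane repair gene, Myl2, Cacna1s, the slow fibre troponin gene Tnnt1 and Unc45b. The summed level of 17 fast fibre genes ran from 98.8 to 364 CPM in BPA, 60.6 to 9427 CPM in Mix, and 107 to 8331 CPM in vehicle thyroids of females. All 17 had a negative fitted difference for BPA against vehicle, with a median of -4.42, where 48.4% of all rows were negative. EdgeR and DESeq2 called 0, and 9 had an unadjusted p below 0.05, against 13.3% of all rows. The fast fibre genes named here rose and fell together across libraries, so the 17 are not separate observations. The cardiac marker Nppa was at 0 CPM in all 18 thyroids, and the cardiac actin gene Actc1 stood at 0.297 to 23.3 CPM. The summed trachea and airway markers did not exceed 28.2 CPM in any thyroid, and the thymus and lymphoid markers did not exceed 49.2 CPM.

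In ovaries, Myh6 and Myh7 were the members that rose, with both BPA and Mix. Myh6 was 13.5, 25.0 and 13.9 CPM in BPA, 8.23, 16.3 and 15.2 CPM in Mix, and 0.593, 0 and 0.144 CPM in vehicle ovaries. Every treated ovary was far above every vehicle ovary. Myh7 was 3.77, 7.43 and 3.93 CPM in BPA, 2.47, 4.48 and 1.60 CPM in Mix, and 0.148, 0 and 0.144 CPM in vehicle ovaries, again without overlap. Myh6 averaged 17.5 ± 6.53 CPM in BPA, 13.2 ± 4.36 CPM in Mix, and 0.246 ± 0.309 CPM in vehicle ovaries (SD, n = 3 each).

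These levels rest on few counts in the vehicle group. Over the 3 libraries of a group Myh6 had 323 counts in BPA, 282 in Mix and 5 in vehicle ovaries, and Myh7 had 93 in BPA, 63 in Mix and 2 in vehicle ovaries. The ratio of the groups' CPM, from summed counts, for Myh6 was 68.4 for BPA over vehicle, with an exact 95% interval of 29.0 to 212, and 53.3 for Mix over vehicle, with an interval of 22.6 to 165. For Myh7 it was 49.2 for BPA over vehicle, with an interval of 13.3 to 413, and 29.8 for Mix over vehicle, with an interval of 7.90 to 251. These intervals cover counting error only. Fitted log2 differences, which depend on the prior count where a group is this low, were 5.79 ± 0.65 and 5.51 ± 0.65 for Myh6 in BPA and in Mix, with edgeR adjusted p of 0.000695 and 0.00116. They were 5.19 ± 0.91 and 4.50 ± 0.91 for Myh7 in BPA and in Mix, with edgeR adjusted p of 0.00761 and 0.0125.

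Of 9 members tested in ovary edgeR and DESeq2 each called 2 for BPA against vehicle, both higher, where edgeR called 6.79% of all 10871 rows, 2.91% higher and 3.88% lower, DESeq2 called 11.3%, and 23.5% had an unadjusted p below 0.05. For Mix against vehicle both tools called the same 2, where edgeR called 9.12% of all rows, 4.13% higher and 4.99% lower, DESeq2 called 13.9%, and 25.5% had an unadjusted p below 0.05. The 2 comparisons share their vehicle ovaries. Myh6 and Myh7 had 5 and 2 counts over the 3 vehicle ovaries and passed the low-count filter through the treated ovaries. They were also chosen with this signal known, so these calls are a description and no independent support. For Mix against BPA edgeR called 0 of 9, against 0.212% of all rows, 0.0644% higher and 0.147% lower. An unadjusted p below 0.05 was found for 0 of 9, against 12% of all rows. DESeq2 called 287 of all rows and no member, but gave an adjusted p only for Adipoq, Cfd, Fabp4 and Myh6. The log2 difference was -0.28 for Myh6, with a 95% interval of -1.20 to 0.65, and -0.69 for Myh7, with an interval of -2.07 to 0.69. Ribosomal RNA took 12.4%, 18.5% and 19.1% of counts in BPA, 18.7%, 23.8% and 22.1% in Mix, and 20.7%, 29.4% and 23.7% in vehicle ovaries. With that share as a covariate Myh7 in BPA had a log2 difference of 5.70 and an edgeR adjusted p of 0.0578, and without vehicle replicate 2 Myh7 in Mix had 4.03 and an edgeR adjusted p of 0.0517.

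Other genes of a cardiac list were also counted. Of 11 further cardiac genes 4 passed the low-count filter in ovary, and edgeR called 0 of the 4 in either comparison and DESeq2 1 in each, with 1 at an unadjusted p below 0.05 in each. In edgeR the gene with the lowest adjusted p was Ryr2 for BPA and Tnni3 for Mix, in opposite directions. The log2 difference of Ryr2 was 1.67 ± 0.49 with BPA (edgeR adjusted p = 0.05925) and -0.11 ± 0.50 with Mix. That of Tnni3 was -0.24 ± 0.34 with BPA and -1.08 ± 0.35 with Mix (edgeR adjusted p = 0.0701). Nppa, the atrial natriuretic peptide gene, was at 0 CPM in all 9 ovaries and Actc1 did not exceed 0.128 CPM. The troponin gene Tnnt2 was 12.5 to 25.4 CPM in BPA, 12.9 to 18.1 CPM in Mix, and 12.8 to 20.2 CPM in vehicle ovaries, with log2 differences of -0.03 ± 0.28 and -0.31 ± 0.28. Tnni3 was 13.8 to 20.7 CPM in BPA, 6.17 to 11.0045 CPM in Mix, and 9.997 to 25.1 CPM in vehicle ovaries. The summed level of the 11 cardiac genes was 41.3 to 52.3 CPM in BPA, 28.007 to 30.8 CPM in Mix, and 31.1 to 49.6 CPM in vehicle ovaries.

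A calcium-store gene of slow and cardiac muscle, Casq2, was 4.58, 2.36 and 5.41 CPM in BPA, 3.02, 6.53 and 6.24 CPM in Mix, and 1.04, 0.769 and 0.722 CPM in vehicle ovaries. It rose with Mix by 2.47 ± 0.59 on the log2 scale (edgeR adjusted p = 0.0232), and with BPA its difference of 1.98 ± 0.59 had an edgeR adjusted p of 0.0642. It was the 1 gene called among 7 tested slow and pan-striated muscle genes, and DESeq2 called 2 of the 7 for BPA and 1 for Mix. The genes of this list with the highest levels were Smpx, Des, Tnnt1 and Tnni1. Their log2 differences with BPA were -0.04, -1.21, -0.55 and -0.20. With Mix these were -0.24, -0.73, -0.90 and 0.245, and edgeR called none of these genes. EdgeR and DESeq2 called 0 of 5 fast fibre genes in either comparison, and 0 of the 5 had an unadjusted p below 0.05. Acta1 was 3.37, 0.725 and 2.29 CPM in BPA, 2.60, 3.45 and 4.64 CPM in Mix, and 2.37, 5.69 and 7.36 CPM in vehicle ovaries. Ckm was 0.673, 0.543 and 2.62 CPM in BPA, 0.960, 4.35 and 3.20 CPM in Mix, and 1.78, 1.85 and 0.289 CPM in vehicle ovaries, and both overlapped between groups.

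**Figure D4:**
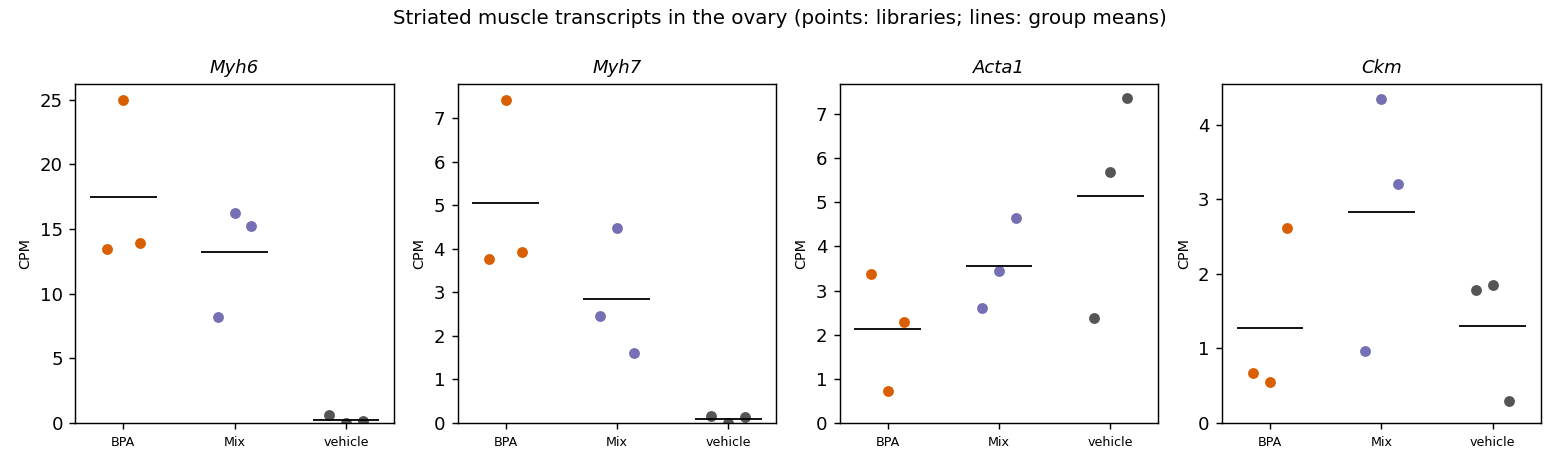
Striated muscle transcripts in each ovary, in CPM on a linear axis from 0, by treatment; points are libraries and lines are group means (3 libraries each). Myh6 and Myh7 lie at 8.23 to 25.0 CPM and 1.60 to 7.43 CPM in treated ovaries and at 0.593 CPM or less in vehicle ovaries, and Acta1 and Ckm overlap between groups.

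Myh6 and Myh7 kept a similar proportion in most treated ovaries. Myh7 stood at 28, 29.7 and 28.2 per 100 Myh6 counts in BPA ovaries, and at 30, 27.6 and 10.5 per 100 in Mix ovaries, the third Mix ovary standing apart. In the 1 thyroid with at least 50 Myh6 counts, the third female Mix library, it was 382 per 100. The heavy chains are closely related genes that stand side by side on chromosome 15 in GRCr8, where the RefSeq table also lists the name Myh7 as an older name of Myh6 and places other annotated genes within each. How reads fitting both were counted is not stated, so the split between them is uncertain.

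The rows most like Myh6 over the 9 ovaries were Gsta2 (r = 0.987) and Gsta5 (0.986), glutathione transferases, Fabp3 (0.984), the fatty acid binding protein of heart and muscle, Eif4b and Rnf146; Myh7 ranked 23 of 10870 rows, with r = 0.949. A gene that differs between treated and vehicle ovaries is alike on that ground alone. Fabp3 was 195, 260.2 and 250.4 CPM in BPA, 144, 186 and 206 CPM in Mix, and 36.0, 40.0 and 41.1 CPM in vehicle ovaries. It rose by 2.30 ± 0.20 on the log2 scale with BPA and by 2.03 ± 0.20 with Mix, with edgeR adjusted p of 0.000191 and 0.000547. Among ovary cell markers Cyp17a1, the androgen-forming enzyme of theca cells, was 94.5, 239.5 and 102 CPM in BPA, 133, 121 and 266 CPM in Mix, and 5.04, 2.61 and 1.59 CPM in vehicle ovaries. Of 9 tested granulosa, theca and oocyte genes edgeR called 5 higher and 1 lower with BPA and 2 higher with Mix. Endothelial markers, 4 genes summed, stood at 139.8 to 171 CPM in BPA, 129.6 to 224 CPM in Mix, and 97.97 to 102 CPM in vehicle ovaries, without overlap between treated and vehicle, and edgeR called Cdh5, an endothelial cadherin, higher with Mix (log2 difference 1.22 ± 0.34, adjusted p = 0.0411). Myh11, the smooth muscle myosin heavy chain, rose with Mix by 1.24 ± 0.28 on the log2 scale (edgeR adjusted p = 0.0186). The summed hepatocyte markers were 20.2, 50.7 and 18.4 CPM in BPA, 122, 11.6 and 47.4 CPM in Mix, and 208, 314 and 17.03 CPM in vehicle ovaries, and edgeR called 2 of 4 tested, Ttr and Serpina1, lower with BPA. The part of these cells in the myosin values was not tested.

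Fat members did not pass in ovaries. Fabp4 was 81.8, 34.6 and 24.1 CPM in BPA, 37.0, 111.6 and 9.28 CPM in Mix, and 65.8, 43.8 and 80.1 CPM in vehicle ovaries. Adipoq was 4.04, 17.9 and 3.93 CPM in BPA, 13.4, 10.6 and 0.160 CPM in Mix, and 15.7, 14.9 and 5.77 CPM in vehicle ovaries. Cfd was 30.3, 63.2 and 43.8 CPM in BPA, 95.1, 70.9 and 26.9 CPM in Mix, and 28.02, 29.2 and 46.5 CPM in vehicle ovaries. For all 3 the groups overlapped, and the third Mix ovary was the lowest of the 9 in Fabp4, Adipoq and Cfd. Among other adipocyte genes edgeR called 1 of 17 with BPA and 2 of 17 with Mix, shares near the 6.79% and 9.12% of all rows. With BPA this was Cebpa, an adipocyte transcription factor that rose by 0.73 ± 0.15 on the log2 scale (edgeR adjusted p = 0.0141). With Mix these were Acsl1, a fatty acid activating enzyme, and Aoc3, an amine oxidase of fat and smooth muscle, which rose by 0.62 ± 0.16 and 0.84 ± 0.24 (edgeR adjusted p = 0.0291 and 0.0432).

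In female kidneys 1 Mix library carried most of the fat signal. Fabp4 was 79.4 and 12.3 CPM in BPA, 13.2, 517 and 42.3 CPM in Mix, and 41.2 and 92.4 CPM in vehicle kidneys. Ucp1 was 3.01 and 0 CPM in BPA, 0, 38.1 and 0.152 CPM in Mix, and 0 and 0 CPM in vehicle kidneys. The second Mix kidney was the highest for both, and also for Adipoq (130.2 CPM), Cfd (223 CPM), Cidec (43.7 CPM), Plin1 (8.61 CPM) and the adipocyte genes Tusc5 (32.5 CPM) and Retn (25.3 CPM). Without it, Adipoq was 9.74 and 12.8 CPM and Cfd 0.696 and 1.52 CPM in Mix kidneys. The label code of this rat recurs in other organs, where its thyroid had 958 CPM and its ovary 111.6 CPM of Fabp4, in each the highest of the 3 Mix libraries, and its liver had 8.46 CPM, the second highest.

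**Figure D5:**
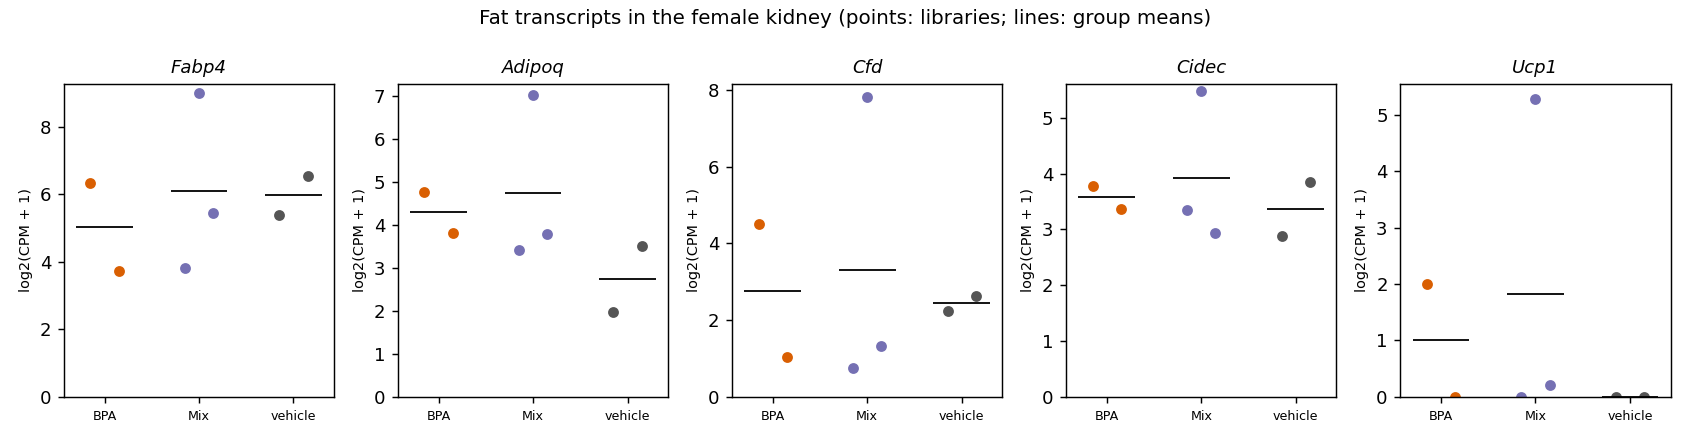
Fat transcripts in each female kidney library, as log2(CPM + 1), by treatment; points are libraries and lines are group means (2 BPA, 3 Mix and 2 vehicle libraries). The second Mix library, with 517 CPM of Fabp4 and 38.1 CPM of Ucp1, lies above all others in each panel.

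For Mix against vehicle in female kidneys edgeR called 0 of 6 members, where it passed 0.0% of all 10681 rows. DESeq2 called 65 of all rows and no member, but of the 6 it gave an adjusted p for Fabp4 alone. The 2 members Adipoq and Ucp1 had an unadjusted p below 0.05, against 10.4% of all rows. For BPA against vehicle and for Mix against BPA edgeR also called 0 of 6, with 0.0% of all rows passing. DESeq2 called no member in either. It gave no adjusted p for Cfd and Ucp1 in both, nor for Acta1 in BPA against vehicle. An unadjusted p below 0.05 was found for 1 member (Acta1) in each, against 16.4% of all rows for BPA against vehicle and 7.29% for Mix against BPA. Acta1 there was 0.354 and 0 CPM in BPA, 1.11, 2.41 and 1.52 CPM in Mix, and 7.33 and 1.67 CPM in vehicle kidneys, at most 45 counts in a library.

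In male kidneys Fabp4 was 47.4, 39.6 and 44.6 CPM in BPA, 20.2, 8.11 and 51.7 CPM in Mix, and 16.1, 17.5 and 12.2 CPM in vehicle kidneys. All BPA kidneys lay above all vehicle ones, and Mix spanned both. Fibroblast markers, 5 genes summed, stood at 683 to 865 CPM in BPA, 343 to 517 CPM in Mix, and 270.4 to 401 CPM in vehicle kidneys, and edgeR called 2 of the 5 higher with BPA, Dcn (adjusted p = 0.00358) and Pdgfra (adjusted p = 0.0482). Ribosomal RNA took 37.2%, 16.4% and 36.9% of counts in BPA, 20.2%, 1.42% and 6.04% in Mix, and 3.50%, 1.71% and 2.53% in vehicle kidneys. With the ribosomal share as a covariate edgeR called 0 members, and the part of the fibroblast markers in the Fabp4 values was not tested. The log2 difference of Fabp4 for BPA against vehicle was 1.93 ± 0.48, with adjusted p of 0.0841 in edgeR and 0.00383 in DESeq2, and edgeR called 0 of 4 members, against 0.136% of all 11000 rows. DESeq2 called 1, Fabp4, against 7.9% of all rows, and Fabp4 alone had an unadjusted p below 0.05, against 21% of all rows. Adipoq and Cidec in the same BPA kidneys, at 8.44 to 14.9 CPM and 28.8 to 66.7 CPM, overlapped the vehicle values of 4.21 to 14.3 CPM and 55.2 to 75.7 CPM. For Mix, edgeR and DESeq2 called 0 of 4 against vehicle, where edgeR passed 0.0273% of all rows and DESeq2 called 88 rows. No member there had an unadjusted p below 0.05, against 9.2% of all rows. Against BPA both tools called 0 of 4, where edgeR passed 2.93% of all rows and DESeq2 called 693 rows. Fabp4 alone had an unadjusted p below 0.05 for Mix against BPA, against 15.4% of all rows.

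Cidec and Cfd were the fat members with most counts in liver. In male livers Cidec was 30.001, 40.0 and 60.9 CPM in BPA, 41.3, 41.0 and 49.997 CPM in Mix, and 97.2, 94.9 and 39.2 CPM in vehicle livers, with the third vehicle liver inside the treated range. In female livers Cidec was 84.9, 61.7 and 52.4 CPM in BPA, 73.9, 36.6 and 62.6 CPM in Mix, and 59.3, 49.0 and 52.6 CPM in vehicle livers. Cfd was 23.5, 21.5 and 19.2 CPM in BPA, 33.8, 23.3 and 25.8 CPM in Mix, and 47.3, 58.4 and 19.9 CPM in vehicle livers of males, again with the third vehicle liver low. Ribosomal RNA took 23.4% of counts in that liver, 2.72% and 2.50% in the other male vehicle livers, and 4.59% to 19.7% in treated male livers. The part of this share in the Cidec and Cfd values was not tested. In female livers Cfd was 38.4, 62.6 and 35.9 CPM in BPA, 30.7, 29.8 and 20.3 CPM in Mix, and 30.02, 32.0 and 18.2 CPM in vehicle livers, and 1 BPA liver stood above the rest. Plin1 did not exceed 0.626 CPM and Ucp1 0.126 CPM in any liver.

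EdgeR and DESeq2 called 0 of 3 members tested in each liver comparison. In male livers edgeR passed 0.228% of all 9669 rows for BPA against vehicle, where Cfd and Cidec had an unadjusted p below 0.05, against 7.58% of all rows. It passed 0.321% for Mix against vehicle, where Cidec alone had one, against 6.71% of all rows, and 0.0103% for Mix against BPA, where no member had one, against 6.18%. In female livers edgeR passed 0.419% of all 9554 rows for BPA against vehicle, where Cfd alone had an unadjusted p below 0.05, against 11.4% of all rows. It passed 0.0523% for Mix against vehicle, where no member had one, against 6.62%, and 0.0% for Mix against BPA, where Cfd alone had one, against 6.5%.

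Differences between the sexes in treatment effect were also tested in liver and kidney. In liver edgeR and DESeq2 called 0 of 4 members, where edgeR passed 0.209% of all 10044 rows for BPA and 0.189% for Mix. DESeq2 called 75 rows for BPA and 52 for Mix, with no adjusted p for Acta1 with BPA. An unadjusted p below 0.05 was found in liver for Acta1 and Cfd with BPA, against 9.62% of all rows, and for 0 members with Mix, against 6.33%. In kidney both tools called 0 of 7, where edgeR passed 4.73% of all 11651 rows for BPA and 0.00858% for Mix. DESeq2 called 1278 rows for BPA and 45 for Mix. It gave no adjusted p for Cfd and Ucp1 with BPA. With Mix it gave an adjusted p for Cidec and Fabp4 only. An unadjusted p below 0.05 was found in kidney for Acta1 with BPA, against 23.6% of all rows, and for Adipoq with Mix, against 10.1%.

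In testes Adipoq was 71.4, 76.4 and 105 CPM in BPA, 73.6, 59.7 and 52.1 CPM in Mix, and 82.0, 81.4 and 61.8 CPM in vehicle testes. The groups overlapped, and the spread over all 9 testes was narrow beside that of Adipoq in thyroids. Cfd was 31.3, 21.6 and 12.5 CPM in BPA, 11.3, 13.2 and 16.0045 CPM in Mix, and 14.1, 20.1 and 15.3 CPM in vehicle testes. Muscle members were low, with Acta1 at 1.35 to 4.64 CPM, Myh6 at 0 to 2.31 CPM and Myh7 at 1.37 to 3.01 CPM. EdgeR and DESeq2 called 0 of 7 members for BPA against vehicle and 0 of 7 for Mix against vehicle, where 0.0% of all 11098 rows passed in edgeR. No member had an unadjusted p below 0.05 in either, against 12% of all rows for BPA and 5.33% for Mix. For Mix against BPA edgeR called 0 of 7, where it passed 0.775% of all rows, and DESeq2 called 449 of all rows and no member. Acta1, Adipoq and Cfd had an unadjusted p below 0.05, against 17.2% of all rows. Both for this comparison and for BPA against vehicle DESeq2 gave an adjusted p for Adipoq and Cfd only.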

How the data were processed

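Per the labels' protocols, RNA was isolated with TRIzol and sequenced from 3′ ends with a QuantSeq kit. The submitters' processing notes name FastQC, Bowtie2, bedtools, edgeR and rn6, with no version. The authors deposited whole-number counts per gene, 17048 rows by 70 libraries. These are not normalized, as the values show. Treatment of strand, overlapping genes and reads with several alignments is not given in the sources used here.

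The labels' organ, sex and treatment gave 24 groups. Levels are plain CPM of the library total. Each organ and sex was fitted over its 3 treatment groups with edgeR 4.0.16 (R 4.3.3): filterByExpr by group, TMM scaling, the quasi-likelihood test and Benjamini-Hochberg adjustment over all rows tested, with an adjusted p below 0.05 as a call. Differences between the sexes were tested as interactions, females minus males. An error after ± of a log2 difference is its standard error. DESeq2 1.42.0 was an alternative, and its NA values were left NA. A member with NA could not be called by DESeq2, though it counts among the members tested. Members, gene lists and tests were chosen with earlier results of these data known. The genes named are the members, the genes of each list with the highest level or passing the test, and for likeness the 5 rows with the highest r, of which 1 is not reported here; Lep, Tusc5, Retn, Rfc4 and the per-library values of Casq2 and Fabp3 were chosen after values were seen. The scripts were tested on simulated data. Of 68 pairs of libraries within groups none agreed within sampling noise. Replicate numbers did not pair samples of different treatments.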

Additional observations from a re-analysis of the deposited data

How the results depend on the processing

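Calls of members by edgeR were recomputed with RLE scaling, no low-count filter, a replicate block, the ribosomal share as a covariate, only the 2 groups compared and each library left out, and by DESeq2. With the replicate block the 2 calls in ovary for BPA and the 2 for Mix against vehicle were made again and no other comparison gained a call. The deviations of same-numbered libraries correlated above 0.1 in 1 of 9 pairs in male thyroids, 2 of 9 in female thyroids, 1 of 9 in ovaries, 5 of 9 in male kidneys (median r 0.112) and 0 in the other organs and sexes, so in none did every pair pass and the numbers were read as names. Ovary BPA against vehicle gave 1 call with the ribosomal covariate, and ovary Mix against vehicle 1 to 2 calls when a library was left out, 1 without vehicle replicate 2. Female thyroid gave 1 call for BPA against vehicle and 2 for Mix against vehicle with DESeq2, and 0 to 1 for BPA and 0 to 4 for Mix when a library was left out, the calls coming without vehicle replicate 1. Male thyroid gave 1 call for Mix against vehicle and 1 for Mix against BPA with DESeq2, and the thyroid sex difference for BPA 0 to 1 (1 without female vehicle replicate 1). Male kidney BPA against vehicle gave 1 call with DESeq2, 1 without a filter, 1 with 2 groups and 0 to 1 when a library was left out, 1 without Mix replicate 1 or 2. Male kidney Mix against BPA gave 0 to 1, 1 without Mix replicate 3. Without a filter female kidney Mix against vehicle gave 2 calls, and female liver BPA against vehicle, female liver Mix against BPA and the liver sex difference for BPA gave 1 each, Acta1. Calls over all rows in ovary also moved. The members called there were chosen with this signal known, so how far their calls held is no independent support. BPA against vehicle had 738, and 1226 with DESeq2, 96 with the ribosomal covariate and 184 to 892 when a library was left out. Mix against vehicle had 991, and 1507 with DESeq2, 616 with the covariate and 263 to 1177 when a library was left out. Mix against BPA had 23, and 287 with DESeq2, 85 without a filter, 9 with 2 groups, 11 with the covariate and 0 to 38 when a library was left out. No fold change of a called member changed sign, and the mean levels under TMM and without ribosomal rows moved by less than 1 SD. The cause of these changes was not tested. Leaving out libraries in the kidney and liver interactions was not run. With 2 or 3 libraries a group, wide errors limit what differences can be seen, most of all for muscle transcripts of thyroids.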
